A study of Mus musculus with 48 samples.

Results

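The genes described are 43 enzymes and regulators of drug and xenobiotic metabolism in mouse jejunum: cytochromes P450, the P450 reductase Por and the heme enzyme Alas1, the receptors Nr1i2, Nr1i3 and Ahr, glutathione transferases (GST), UDP-glucuronosyltransferases (UGT) and other enzymes of the same pathway. They were chosen by symbol from a table of 55401 genes, and all 43 symbols were found. Of these, 42 passed the low-count filter, as did 15646 genes in all. Cyp2d34, with 2 counts over all libraries, did not pass and was not tested.

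Cytochromes P450 sit in the endoplasmic reticulum and add an oxygen atom to fatty acids, sterols, drugs and food chemicals, with electrons that most of them take from NADPH through Por. GST and UGT enzymes then attach glutathione or glucuronic acid, which makes the products more water-soluble and easier to export. Many of these genes are textbook targets of the receptors PXR (Nr1i2), CAR (Nr1i3) and AhR (Ahr), and the epithelium of the small intestine is, after the liver, a main site of such metabolism.

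The libraries came from whole jejunum of Bmal1iec-/- mice (knockout) and of bmal1fl/fl mice (control), kept in constant darkness and sampled every 4 h over a day, from circadian time 1 (CT1) to CT21. BMAL1, the product of Arntl, is an activator of the circadian clock. The controls carry the floxed gene, and the sources used here do not spell out which cells or exons are deleted beyond the genotype label, so any cell type of the jejunum without the deletion keeps its BMAL1. Each genotype and time had 4 libraries, except knockout CT9 with 3 analysed here, for 23 knockout and 24 control libraries. Age, the Cre driver and any pooling of animals are not stated there.

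Total counts lay between 4337218 and 6914138 per library, so 3 counts correspond to 0.434 to 0.692 CPM (counts per M, scaled to library size). Arntl averaged 27.3 ± 7.15 CPM (SD, n = 4) in knockout and 75.5 ± 2.99 CPM in control at CT1 (SD, n = 4), but 28.2 ± 3.11 CPM in knockout (SD, n = 3) and 10.4 ± 1.34 CPM in control (SD, n = 4) at CT9. It thus stayed within 27.3 to 31.4 CPM over the knockout group means, and its counts cover the whole gene, deleted or not. Nr1d1, a direct target of BMAL1, fell by 1.94 on the log2 scale averaged over times (SE 0.12, adjusted p = 2.22e-17, edgeR quasi-likelihood test), and Dbp fell by 0.81 (SE 0.12, adjusted p = 1.69e-06). Neither fall held at each time. Nr1d1 did not pass the same test at CT17 (log2 fold change -0.69, adjusted p = 0.334) or at CT21 (0.26, adjusted p = 0.93). Dbp was 1.19 higher in knockout at CT1, where its control mean was lowest at 1.02 CPM (adjusted p = 0.0252 in the same test). At CT21 its difference was 0.007. In 5 libraries, knockout CT1 replicates 1, 2 and 3, knockout CT21 replicate 4 and control CT21 replicate 1, log2 levels spread more widely around the median library, with an interquartile range of 0.554 to 1.03 against 0.261 to 0.439 in the other 42. Long genes were low in those 5 libraries, with a slope of log2 level on log2 length of -0.249 to -0.106 against -0.051 to 0.053 elsewhere. Results that rest on them are given with and without them. The 12 enterocyte markers, all detected, summed to 34149 to 49885 CPM in knockout and 35304 to 52268 CPM in control, with 3 higher and 4 lower in knockout. Markers were called at an adjusted p under 0.05 averaged over times, at which 12.4% of all genes were higher and 11.3% lower. The 6 markers of T cells and intraepithelial lymphocytes, all detected and all lower in knockout, summed to 47.9 to 113 CPM in knockout and 91.6 to 374 CPM in control. Of 5 B and plasma cell markers 4 were lower, with sums of 270 to 1022 CPM in knockout and 509 to 1024 CPM in control, and of 6 fibroblast and endothelium markers 3 were lower, with sums of 333 to 794 CPM in knockout and 478 to 967 CPM in control. Of 5 macrophage markers 2 were lower, and of 6 enteroendocrine markers 3 were higher, with sums of 326 to 689 CPM in knockout and 288 to 518 CPM in control. Aqp8, 1 of 2 colon markers tested, averaged 20.9 CPM in knockout and 1.14 CPM in control (log2 fold change 4.81). The other, Slc26a3, averaged 185 CPM in knockout and 182 CPM in control (log2 fold change 0.03, adjusted p = 0.817 in edgeR's test). Of 2 ileum markers tested, Slc51a was higher in knockout (log2 fold change 0.69), and Slc10a2 did not pass at -0.31 (adjusted p = 0.303 in edgeR's test). The part of these cell types in the enzyme results was not tested. In whole tissue, fewer cells of a type and less RNA per cell cannot be told apart.

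Upstream sequences are given for the genes on which the results below turn, as the 250 bases before the RefSeq start on build GRCm38.p6, written 5′ to 3′ on the gene's strand. Of the 43 genes, 39 had an entry; Ahr, Gsta4, Ephx2 and Cyp2d34 had none. The first 4 genes lie side by side in the Cyp2c cluster of chromosome 19, and capitals mark the TATA box letters TATAAA and the nuclear receptor motif AGNTCA on either strand. Cyp2c55 and Cyp2c29 had the largest increases in knockout.
Cyp2c55: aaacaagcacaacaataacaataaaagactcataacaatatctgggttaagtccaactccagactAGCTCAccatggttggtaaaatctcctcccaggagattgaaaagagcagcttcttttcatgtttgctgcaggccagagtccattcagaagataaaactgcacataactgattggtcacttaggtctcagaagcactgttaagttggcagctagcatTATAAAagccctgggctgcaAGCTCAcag
Cyp2c29: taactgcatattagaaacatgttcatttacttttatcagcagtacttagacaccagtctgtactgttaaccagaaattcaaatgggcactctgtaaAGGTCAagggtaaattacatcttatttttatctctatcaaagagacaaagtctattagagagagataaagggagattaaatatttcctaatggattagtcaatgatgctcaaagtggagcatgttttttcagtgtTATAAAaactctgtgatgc
The intervals are chr19:39006769-39007018 for Cyp2c55 and chr19:39286835-39287084 for Cyp2c29, both on the plus strand. The next pair is shown because its transcripts share sequence, and the upstream windows do so as well, with 83.2% of 250 bases identical in a global alignment against 56.0% to 62.8% for the other pairs among these Cyp2c genes and Cyp3a11.
Cyp2c66: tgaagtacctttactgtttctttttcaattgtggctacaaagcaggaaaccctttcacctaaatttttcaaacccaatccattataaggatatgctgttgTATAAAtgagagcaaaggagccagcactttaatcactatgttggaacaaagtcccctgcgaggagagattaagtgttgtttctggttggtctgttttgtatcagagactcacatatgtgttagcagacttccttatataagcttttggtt
Cyp2c65: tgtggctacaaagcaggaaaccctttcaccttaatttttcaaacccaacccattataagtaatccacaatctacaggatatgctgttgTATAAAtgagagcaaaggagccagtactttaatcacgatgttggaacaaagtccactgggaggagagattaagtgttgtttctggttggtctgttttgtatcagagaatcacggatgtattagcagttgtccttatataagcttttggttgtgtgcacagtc
These lie at chr19:39113648-39113897 for Cyp2c66 and chr19:39060756-39061005 for Cyp2c65, on the plus strand. Cyp3a11, at chr5:145879855-145880104 on the minus strand, is a CYP3A enzyme of mouse intestine and liver, and its window, with the same letters in capitals, holds the only direct repeat of AGNTCA spaced by 4 bases among the 39 genes.
Cyp3a11: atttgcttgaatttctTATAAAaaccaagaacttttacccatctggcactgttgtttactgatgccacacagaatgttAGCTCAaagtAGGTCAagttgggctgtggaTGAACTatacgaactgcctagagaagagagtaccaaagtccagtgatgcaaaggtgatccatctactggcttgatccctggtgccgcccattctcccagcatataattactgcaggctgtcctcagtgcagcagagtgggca
Por, at chr5:135688895-135689144 on the plus strand, is shown with the letters GCGTG, the core of the dioxin response element, in capitals on either strand. Its RefSeq start and those of Cyp2c29 and Cyp3a11 lie inside the longer genes of GENCODE, so these windows lie wholly or in part inside those genes.
Por: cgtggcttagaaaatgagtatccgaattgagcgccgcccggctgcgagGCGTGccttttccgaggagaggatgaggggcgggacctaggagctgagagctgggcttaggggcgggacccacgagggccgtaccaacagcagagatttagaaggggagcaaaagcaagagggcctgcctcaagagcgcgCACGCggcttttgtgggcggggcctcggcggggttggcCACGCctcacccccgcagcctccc

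Motif letters were searched on both strands in all 32851 promoters of the same length. The 39 genes had 47 of these promoters, and a gene was counted once if any of its promoters held the letters. Counts of genes and shares of promoters are therefore not the same measure. The direct repeat, AGNTCA and then AGNTCA again after 4 free bases, of the kind that PXR and CAR bind, was found in 0.103% of promoters and in Cyp3a11 from the base 172 to the base 157 before the start. TATAAA was found in 12.4% of promoters and in 12 of the 39 genes, and it overlaps no AGNTCA in the sequences shown; it begins 29 bases before the start in Cyp2c55 and 19 in Cyp2c29, but 150 in Cyp2c66 and 162 in Cyp2c65. The clock E-box CACGTG was in 6.02% of promoters and in Cyp2j6, Cyp4v3 and Nr1i3. The D-box TTANGTAA was in 2.06% of promoters and in none of the 39 genes. GCGTG was in 28.2% of promoters and in 10 of the 39 genes, 3 times in Por, and AGNTCA was in 41.3% of promoters and in 16 of the 39. These are matches of letters in a short window and describe no binding.

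Averaged over the 6 times, knockout jejunum had more mRNA of the Cyp2c and Gstm enzymes and of Ugt2b36, and less of Por, Cyp2b10, Cyp27a1, Gstp1 and Fmo5. Of 42 genes tested, 19 (45.2%) changed, against 23.6% of the 15646 genes, with 13 higher, against 12.4% of all genes, and 6 lower, against 11.3%. The genes were chosen with earlier results of these data known, so these shares and those given below describe the list and test no enrichment. The median log2 fold change of the 42 genes was 0.026, against -0.006 over all genes. The range ran from a fall of 0.58 for Por to a rise of 1.88 for Cyp2c55. Changes were called by edgeR's quasi-likelihood test with Benjamini-Hochberg adjustment over all genes, at an adjusted p under 0.05.

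**Figure D1:**
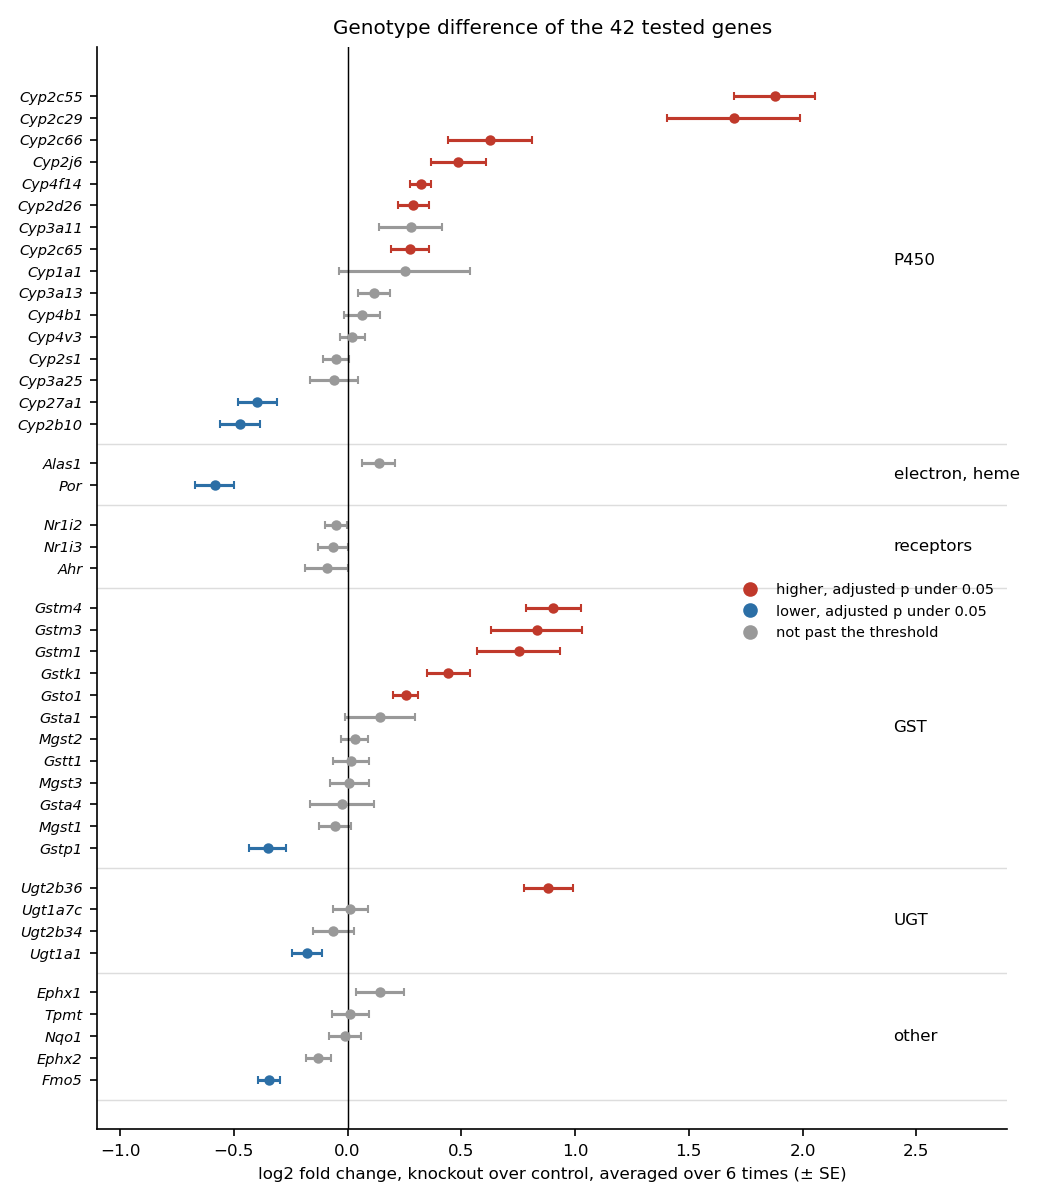
Log2 fold change of knockout over control averaged over 6 times (x axis, bars are SE) for the 42 tested genes (rows), grouped by role. Red points were higher and blue points lower at an adjusted p under 0.05: 13 and 6 genes, with Cyp2c55 and Cyp2c29 farthest to the right and Por farthest to the left.

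Of the 16 cytochromes P450 tested, 7 were higher, 2 were lower and 7 did not pass, where 12.4% of all genes were higher and 11.3% lower. Cyp2c55, an enzyme that oxidises arachidonic and linoleic acid, had a lowest, median and highest level of 80.4, 268 and 680 CPM in the 23 knockout libraries, against 6.29, 85.8 and 399 CPM in the 24 control libraries. The ranges overlap over all times together, but at each time except CT1 every knockout library was above every control library. Its log2 fold change averaged over times was 1.88 (SE 0.18, adjusted p = 2.35e-10 in edgeR's test), and 1.73 without the 5 libraries that stood apart (adjusted p = 5.17e-08).

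Cyp2c29, a related epoxygenase, had 26.2, 56.2 and 206 CPM in knockout (lowest, median and highest), against 2.35, 11.6 and 155 CPM in control. Control libraries were far more uneven than knockout libraries, with a standard deviation of log2 levels within groups of 0.45 in knockout and 1.32 in control. Its log2 fold change was 1.70 (SE 0.29, adjusted p = 2.89e-05 in edgeR's test). Cyp2c66 had 45.6, 135 and 284 CPM in knockout, against 17.1, 91.2 and 224 CPM in control, with a log2 fold change of 0.63 (SE 0.18, adjusted p = 0.0109 in edgeR's test). Without the 5 libraries that stood apart it was 0.50 (adjusted p = 0.0910) and no longer passed. Cyp2c65 was at 0.28 (adjusted p = 0.0129) and, without the same libraries, at 0.23 (adjusted p = 0.0548).

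The highest level per length among the 42 genes belonged to Cyp4f14, a hydroxylase of fatty acid and vitamin E tails, at 567 CPM per kilobase in knockout and 455 in control. Its library values were 1135, 1361 and 2076 CPM in knockout (lowest, median and highest), against 853, 1121 and 1317 CPM in control. Its log2 fold change averaged over times was 0.32 (SE 0.05, adjusted p = 4.65e-07 in edgeR's test), with 0.73 at CT1 and 0.15 to 0.33 at the other times. The CYP3A enzymes followed in level, Cyp3a13 with 428 CPM per kilobase in knockout and 396 in control, and Cyp3a11 with 410 in knockout and 337 in control. Cyp3a13 ranged from 829 to 1705 CPM in knockout, median 1227, and from 801 to 1869 CPM in control, median 1148. Cyp3a11 ranged from 1051 to 5247 CPM in knockout, median 1899, and from 981 to 4393 CPM in control, median 1452. The genotypes overlapped for both, and neither passed the test, with log2 fold changes of 0.12 for Cyp3a13 (adjusted p = 0.242) and 0.28 for Cyp3a11 (adjusted p = 0.153).

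Cyp2j6 (log2 fold change 0.49) and Cyp2d26 (0.29) completed the P450s that rose. Cyp2d26 was at 0.81 at CT1, where 3 of the 4 knockout libraries stood apart, and in a mean without CT1 it was at 0.18 (adjusted p = 0.0931) and did not pass. Cyp2b10, the textbook target of CAR, had 256, 327 and 589 CPM in knockout, against 326, 499 and 785 CPM in control. It fell by 0.47 on the log2 scale (SE 0.09, adjusted p = 5.61e-05 in edgeR's test), in the opposite direction to the Cyp2c genes. Cyp27a1, a mitochondrial sterol hydroxylase that does not use Por, fell by 0.40 (adjusted p = 6.18e-04). The 7 P450s that did not pass had log2 fold changes of -0.06 to 0.28. Among them was Cyp1a1, the textbook AhR target, with 0.692, 15.4 and 59.7 CPM in knockout (lowest, median and highest), against 1.19, 10.04 and 124 CPM in control. Its fitted change was 0.25 (SE 0.29, adjusted p = 0.571), while its mean level was 18.3 CPM in knockout and 20.2 CPM in control, so the fitted change and the difference of means have opposite signs.

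Por, which hands electrons to the microsomal P450s, had 62.0, 89.9 and 156 CPM in knockout, against 68.7, 134 and 283 CPM in control. It fell by 0.58 on the log2 scale (SE 0.09, adjusted p = 1.09e-06 in edgeR's test), and by 0.69 without the 5 libraries that stood apart. Alas1, the first enzyme of heme synthesis, was at 0.14 (adjusted p = 0.176). None of the 3 receptors passed: Nr1i2 was at -0.05 (adjusted p = 0.493), Nr1i3 at -0.06 (adjusted p = 0.530) and Ahr at -0.09 (adjusted p = 0.524), with unadjusted p-values of 0.308, 0.346 and 0.340 in that order, so none was under 0.05 before adjustment either, and DESeq2 and limma-voom called none. Nr1i2 ranged from 101 to 172 CPM in knockout and from 105 to 172 CPM in control.

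Of the 12 glutathione transferases, 5 were higher and 1 was lower, where 12.4% of all genes were higher and 11.3% lower. The mu class carried the largest differences. Gstm4 had 18.2, 27.3 and 55.2 CPM in knockout (lowest, median and highest), against 6.79, 17.3 and 29.8 CPM in control. Gstm1 had 90.9, 259 and 574 CPM in knockout, against 55.5, 174 and 348 CPM in control. Gstm3 had 194, 592 and 1263 CPM in knockout, against 79.5, 327 and 944 CPM in control. The ranges overlap for these 3 genes, and their medians were higher in knockout. The log2 fold changes were 0.91 for Gstm4 (SE 0.12, adjusted p = 2.62e-07), 0.83 for Gstm3 (SE 0.20, adjusted p = 0.00203) and 0.75 for Gstm1 (SE 0.18, adjusted p = 0.00210). Without the 5 libraries that stood apart Gstm3 was at 0.47 (adjusted p = 0.0947) and did not pass, and Gstm1 was at 0.50 (adjusted p = 0.0479). The kappa enzyme Gstk1 was at 0.44 and the omega enzyme Gsto1 at 0.25, while the pi enzyme Gstp1 fell by 0.35 (adjusted p = 0.00136). The 6 others, including the microsomal Mgst1, Mgst2 and Mgst3, did not pass and were between -0.06 and 0.14. Mgst1 passed at -0.16 without the 5 libraries that stood apart (adjusted p = 0.0487).

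Of the 4 UGT genes, 1 rose and 1 fell, where 12.4% of all genes rose and 11.3% fell, and 4 genes are too few to compare with these shares. Ugt2b36 had 9.72, 17.7 and 31.5 CPM in knockout, against 4.61, 10.8 and 17.5 CPM in control. It was a low-level gene, at 9.55 CPM per kilobase in knockout and 5.16 in control, with a log2 fold change of 0.88 (SE 0.11, adjusted p = 2.07e-08 in edgeR's test). Ugt1a1, which conjugates bilirubin, fell by 0.18 (adjusted p = 0.0455), and this call was lost when any of 27 of the 47 libraries was left out. Of the 5 other enzymes only Fmo5, a flavin monooxygenase, passed, against 23.6% of all genes called. It had 279, 387 and 517 CPM in knockout, against 379, 519 and 711 CPM in control, and fell by 0.35 (SE 0.05, adjusted p = 6.32e-07 in edgeR's test). Ephx2, the soluble epoxide hydrolase that opens the epoxides made by CYP2C enzymes, had 433, 631 and 967 CPM in knockout, against 406, 652 and 1135 CPM in control, and did not pass at -0.13 (adjusted p = 0.0906). It did pass without the 5 libraries that stood apart, at -0.19 (adjusted p = 0.00486), and in a mean without CT1, at -0.25 (adjusted p = 0.00240).

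Some of these genes have close copies, and the share of 50-base stretches of their transcripts held by no other gene was counted. It was 99.5% for Cyp2c55 and 95.8% for Cyp2c29, and no stretch of Por or Gstm4 was shared. It was 80.5% for Cyp2c66 and 79.4% for Cyp2c65, which share sequence with each other. It was 81.1% for Gstm1, 71.2% for Gstm3, 66.3% for Gstp1, whose copy is Gstp2, 73.2% for Cyp3a25, 41.8% for Ugt1a1 and 46.4% for Ugt1a7c, which share exons with the other Ugt1a genes, and 9.50% for Gsta1. The levels of these genes are uncertain to that extent. Gene models on the opposite strand overlap Cyp2s1, Alas1, Nr1i3, Ahr, Tpmt, Cyp2c55 and the Ugt1a genes, and others overlap Cyp2c29, Cyp4v3 and Ephx1 on the same strand.

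The genes that rose lie in part beside each other. In the Cyp2c cluster of chromosome 19, 14 genes were annotated, 6 passed the low-count filter and all 6 were higher in knockout, Cyp2c38 (log2 fold change 1.56) and Cyp2c68 (0.49) among them. The 8 others had 0 to 219 counts over all libraries. In the Gstm cluster of chromosome 3, 6 of 7 genes were higher, with log2 fold changes of 0.55 for Gstm6, 0.73 for Gstm2, 0.75 for Gstm1, 0.83 for Gstm3, 0.90 for Gstm7 and 0.91 for Gstm4. Gstm5, at the end of the cluster, was at 0.09 (adjusted p = 0.379). Without the 5 libraries that stood apart, Cyp2c65 (adjusted p = 0.0548), Cyp2c66 (0.0910) and Gstm3 (0.0947) did not pass edgeR's test. Over all genes 12.4% were higher. These clusters were picked after the values had been seen, so their counts test nothing against that share.

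Over the other 143 genes listed for the pathway, 104 passed the filter and 43 of those (41.3%) changed, 29 higher and 14 lower, against 23.6% of all genes called, 12.4% higher and 11.3% lower. The counts of the smaller lists are to be read against the same shares. These lists too were chosen with earlier results of these data known, so the shares test no enrichment. Among the other P450s 7 of 22 rose and 3 fell, among the other glutathione genes 5 of 16 rose and 3 fell, and among the other UGT genes 1 of 7 rose and 2 fell. Of other phase I and II enzymes 14 of 43 rose and 3 fell, and of regulators 2 of 16 rose and 3 fell. The 3 that rose with the smallest p were Gstm7 (33.3 CPM in knockout and 17.8 CPM in control; log2 fold change 0.90), Cyp2c68 (146 CPM in knockout and 104 CPM in control; 0.49) and Nfil3, a repressor at D-boxes (24.4 CPM in knockout and 19.4 CPM in control; 0.79). The 3 that fell with the smallest p were Cyp3a44 (0.307 CPM in knockout and 2.39 CPM in control; log2 fold change -2.84), Tef, an activator at D-boxes (55.2 CPM in knockout and 103 CPM in control; -0.54), and Gsta3 (9.58 CPM in knockout and 20.7 CPM in control; -0.98). The knockout level of Cyp3a44 lies under that of 3 counts in a library, so its fold change rests on few reads. The fall of Tef did not hold at CT1. Its group mean there was 36.7 CPM in knockout and 18.5 CPM in control. The rise of Nfil3 did not hold at CT21. Its control mean there was 35.4 CPM, above its highest knockout group mean of 31.6 CPM, which was at CT1.

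At single times the pattern was uneven. At CT5 none of the 42 genes passed edgeR's test, against 0.901% of all genes; 5 had an unadjusted p under 0.05 (Cyp2c55, Cyp4f14, Cyp27a1, Por and Ugt2b36), and DESeq2 and limma-voom called none. At CT1 8 genes were higher and none lower, against 21.0% of all genes called, 12.8% higher and 8.24% lower: Gstk1 (log2 fold change 1.02), Cyp2d26 (0.81), Gstm4 (0.78), Ugt2b36 (0.78), Cyp4f14 (0.73), Mgst3 (0.60), Gsto1 (0.56) and Ephx2 (0.48). The share called is near the background, 3 of the 4 knockout libraries at CT1 stood apart, and without the libraries that stood apart none of the 42 passed. In that fit 2 passed at CT5, against 0 with all libraries, 10 at CT13, against 6, and 1 at CT21, against 2. At CT9, CT13 and CT17 the calls fell on 7 genes (Cyp2c55, Gstm4, Ugt2b36, Por, Fmo5, Cyp2b10 and Ephx2), and the counts were 5, 6 and 5 of 42 against 4.01%, 3.48% and 2.23% of all genes. At CT21 2 genes passed, Cyp2c55 and Cyp2c29, against 1.45% of all genes.

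**Figure D2:**
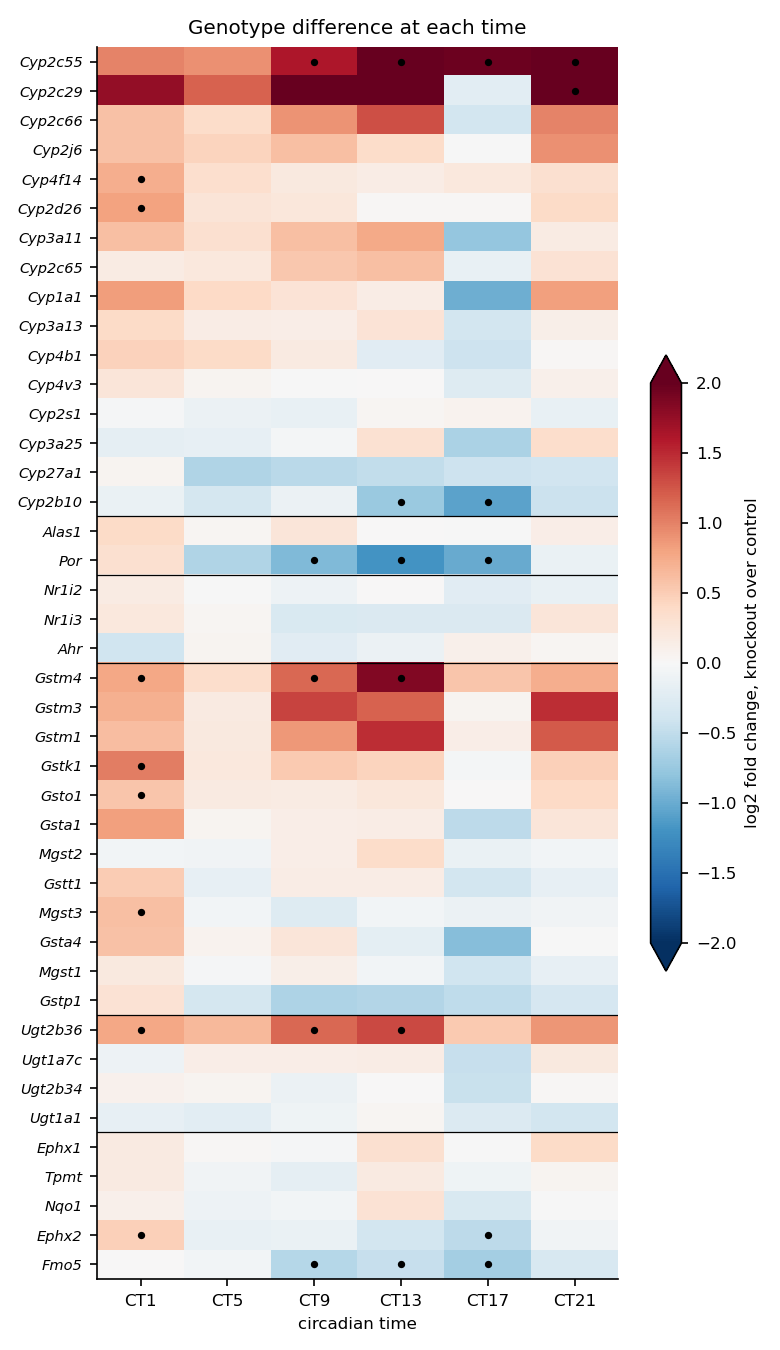
Log2 fold change of knockout over control (colour, capped at -2 and 2) for the 42 tested genes (rows, in order of role) at each circadian time (columns). Dots mark an adjusted p under 0.05, for 8 genes in the first column, none in the second, then 5, 6, 5 and 2.

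Cyp2c55 was called at the 4 times from CT9 to CT21. At CT13 it had 239, 268, 246 and 439 CPM in knockout, against 16.2, 14.7, 63.4 and 26.2 CPM in control. The lowest knockout library was well above the highest control library, and the log2 fold change was 3.30 (SE 0.46, adjusted p = 4.53e-06 in edgeR's test). At CT17 it had 84.0, 110, 80.4 and 123 CPM in knockout, against 6.29, 14.1, 48.2 and 34.5 CPM in control (log2 fold change 1.97, adjusted p = 0.0113). At CT21 it had 127, 117, 273 and 247 CPM in knockout, against 29.9, 29.3, 30.6 and 47.7 CPM in control (log2 fold change 2.47, adjusted p = 0.00117). At CT5, when both genotypes were highest, it had 437, 576, 680 and 532 CPM in knockout, against 185, 391, 209 and 399 CPM in control, which did not pass (log2 fold change 0.91, adjusted p = 0.551). The call at CT17 was lost without control CT17 replicate 1 or 2, with an adjusted p of up to 0.0574, and the call at CT9 without any of 6 single libraries of that time. Whether the difference of Cyp2c55 varied between times was tested and did not pass (adjusted p = 0.115).

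Cyp2c29 had 38.8, 39.7, 41.4 and 31.4 CPM in knockout at CT21, against 3.92, 3.24, 2.35 and 6.11 CPM in control. The groups were far apart and the libraries of each lay close together, with a log2 fold change of 3.27 (SE 0.85, adjusted p = 0.0363 in edgeR's test). This call was lost without any of 7 single libraries of that time, and without the libraries that stood apart it had an adjusted p of 0.120. At CT17 it had 30.3, 55.2, 78.2 and 62.4 CPM in knockout, against 4.14, 6.73, 155 and 98.4 CPM in control, so that control libraries lay both below and above all knockout libraries.

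Gstm4 and Ugt2b36 were called at CT1, CT9 and CT13. At CT13 Gstm4 had 20.8, 25.5, 23.3 and 45.5 CPM in knockout, against 8.34, 6.92, 7.84 and 8.48 CPM in control. The control libraries were close together and all below the knockout libraries, with a log2 fold change of 1.86 (SE 0.32, adjusted p = 1.02e-04 in edgeR's test). Ugt2b36 at CT13 had 17.7, 22.7, 18.4 and 29.4 CPM in knockout, against 6.77, 4.61, 12.7 and 11.2 CPM in control. Again the groups did not overlap, and the log2 fold change was 1.32 (SE 0.26, adjusted p = 7.59e-04). At CT17 neither passed, and 2 control libraries with 22.6 and 20.6 CPM of Gstm4 lay among the knockout values of 18.2 to 24.5 CPM.

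**Figure D3:**
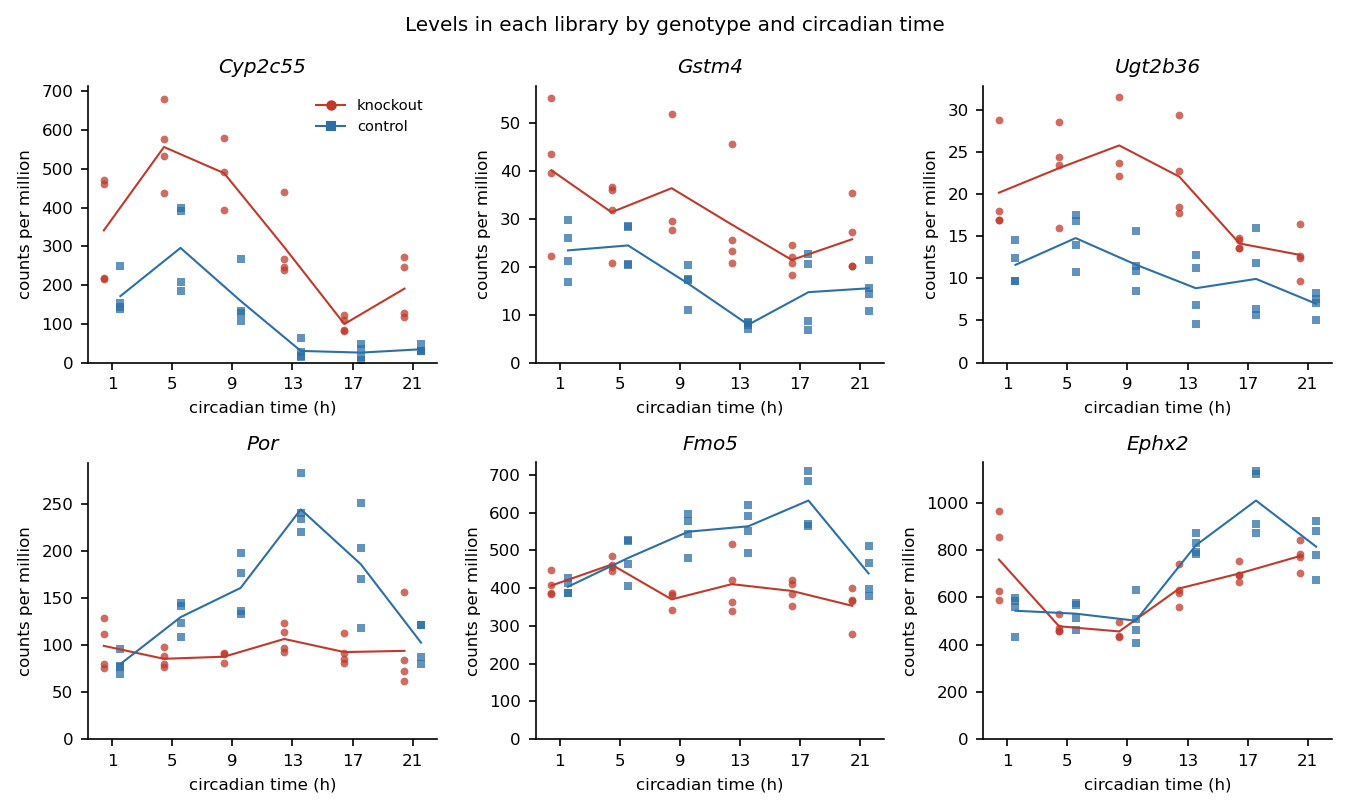
CPM (y axis) in each library at each circadian time (x axis, h), knockout as red circles set left and control as blue squares set right, with lines through the group means. Cyp2c55, Gstm4 and Ugt2b36 were higher in knockout; Por stayed between 85.2 and 106 CPM over the knockout means while control means reached 244 CPM at CT13.

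Por, Fmo5 and Cyp2b10 fell at times between CT9 and CT17. Por at CT13 had 113, 92.5, 96.4 and 123 CPM in knockout, against 220, 283, 240 and 233 CPM in control. Every knockout library was below every control library, and Por fell by 1.20 on the log2 scale (SE 0.21, adjusted p = 1.04e-04 in edgeR's test). At CT1 it had 129, 75.7, 112 and 79.6 CPM in knockout, against 68.7, 77.9, 77.0 and 95.1 CPM in control, and the groups overlapped. It also fell at CT9 by 0.88 and at CT17 by 1.01, where 1 control library with 118 CPM was close to the highest knockout library with 113 CPM. Fmo5 at CT17 had 385, 422, 410 and 352 CPM in knockout, against 569, 563, 684 and 711 CPM in control, without overlap (log2 fold change -0.69, SE 0.12, adjusted p = 2.47e-04). It fell as well at CT9 by 0.57 and at CT13 by 0.46. Cyp2b10 averaged 308 ± 25.3 CPM in knockout and 644 ± 153 CPM in control at CT17 (SD, n = 4 each; log2 fold change -1.06, adjusted p = 0.00189 in edgeR's test), and fell at CT13 by 0.74. All 5 calls at CT9 were lost without knockout CT9 replicate 3. At CT13 the call of Cyp2b10 was lost without any of 6 single libraries of that time (adjusted p up to 0.147) and that of Fmo5 without any of 5 (up to 0.125).

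The genotype difference varied between times for 3 of the 42 genes, against 1.28% of all genes: Por (adjusted p = 0.00673), Ephx2 (0.0173) and Fmo5 (0.0486), by edgeR's joint test. Ephx2 changed direction. At CT1 it had 967, 628, 856 and 589 CPM in knockout, against 433, 585, 559 and 598 CPM in control, and at CT17 663, 696, 753 and 694 CPM in knockout, against 873, 910, 1135 and 1124 CPM in control. It was 0.48 higher at CT1 (adjusted p = 0.0103) and 0.53 lower at CT17 (adjusted p = 0.0220) on the log2 scale; the call at CT17 was lost without any of 5 single libraries of that time. The 2 highest knockout libraries at CT1 are among those that stood apart. Without the 5 libraries the difference at CT1 was at 0.08 (adjusted p = 0.898) and the test of variation between times had an adjusted p of 0.303 for Ephx2, 0.140 for Por and 0.0452 for Fmo5. The call of Fmo5 was lost in 45 of 47 fits that left out 1 library, with an adjusted p of up to 0.173, with RLE scaling (0.0668), with upper-quartile scaling (0.0608) and without the low-count filter (0.0992).

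A 24-h rhythm was called for 14 of the 42 genes in knockout, against 15.0% of all genes, and for 24 of the 42 in control, against 21.1% of all genes. Of these, 11 were called in both, which is 11 of the 14 in knockout and 11 of the 24 in control. Over all genes 1139 were called in both, which is 48.7% of those called in knockout and 34.5% of those called in control. Without the 5 libraries that stood apart, 17 of the 42 genes were called in knockout and 30 in control. Gsto1 (adjusted p = 0.36) and Gstt1 (0.655) then lost their knockout call in edgeR's test. A joint test of the 6 group means called 13 in knockout and 20 in control, and Gstm1 (0.0563) was among those lost in control. The rhythmic genes of knockout peaked mostly between CT2 and CT8 (8 of 14), with 1 between CT11 and CT19, against 17.5% and 23.8% of all genes rhythmic in knockout. In control 10 of 24 peaked between CT2 and CT8, Cyp2c55, Cyp2c65, Cyp2c66, Gstm1, Gstm3, Gstm4 and Ugt2b36 among them, and 12 between CT11 and CT19, Por, Cyp27a1, Cyp4b1, Fmo5 and Ephx2 among them. Of all genes rhythmic in control 23.4% peaked in the earlier window and 41.8% in the later one. The windows differ in width and leave hours between them, and several of these genes moved together between libraries. The shares therefore describe the list and test no clustering of peaks. The largest amplitudes, the height of the fitted cosine above its mean on the log2 scale, were those of Cyp2c55, at 1.11 in knockout (SE 0.18, peak CT6.2) and 1.97 in control (SE 0.18, peak CT4.8), and of Cyp1a1, at 1.41 in knockout (SE 0.31, peak CT19.5) and 1.93 in control (SE 0.32, peak CT18.1).

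The rhythm itself differed between genotypes for 3 of the 42 genes, against 1.57% of all genes. Por had an amplitude of 0.07 in knockout (SE 0.09) and 0.73 in control (SE 0.09, peak CT12.8), with an adjusted p of 8.89e-04 for the difference in edgeR's test, and 0.0335 without the 5 libraries that stood apart. Fmo5 had an amplitude of 0.11 in knockout (SE 0.06) and 0.28 in control (SE 0.05, peak CT13.3; adjusted p = 0.0309). Ephx2 had 0.39 in knockout (SE 0.06, peak CT20.2) and 0.52 in control (SE 0.06, peak CT17.2; adjusted p = 0.0312), but 0.260 without the 5 libraries. The calls of Fmo5 and Ephx2 were close to the threshold and were lost in 34 and 22 of 47 fits that left out 1 library. For Cyp2c55 the difference of rhythm had an adjusted p of 0.0660 and for Cyp4b1, at 0.15 in knockout and 0.58 in control, 0.0628.

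**Figure D4:**
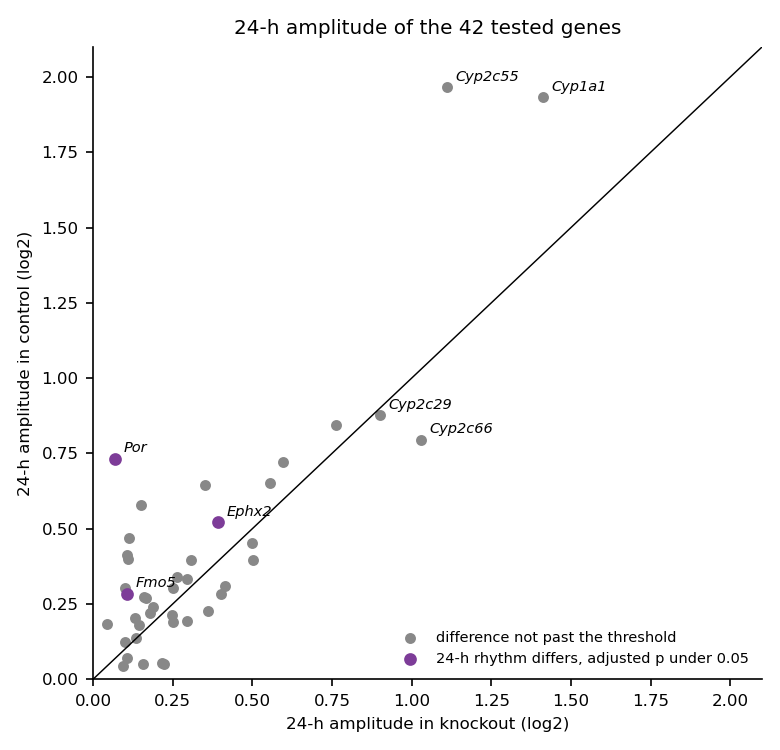
Amplitude of the fitted 24-h cosine (log2) in knockout (x axis) and control (y axis) for the 42 tested genes, with the line of equal amplitude. Por, Ephx2 and Fmo5, in purple, had rhythms that differed at an adjusted p under 0.05, and Por lies nearest the y axis among them at 0.07 in knockout and 0.73 in control.

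Within a genotype and time, libraries differed together in many of these enzymes. The standard deviation of log2 levels within groups was 0.62 for Cyp2c55, 0.63 for Gstm1, 0.64 for Cyp2c66, 0.70 for Gstm3, 0.84 for Cyp1a1 and 1.00 for Cyp2c29, each larger than in at least 97.9% of all genes tested, and 0.49 for Cyp3a11. To describe this, each library's log2(CPM + 1) was set against its group mean and compared with that of Cyp2c55 over the 47 libraries, for 41 genes, with p from 100000 permutations of libraries within groups, adjusted over the 41. Cyp2c66 had a Pearson r of 0.947 and a Spearman rho of 0.914, and Cyp3a11 an r of 0.866 and a rho of 0.856, both with the smallest p the permutations allow, 1e-05 (adjusted 6.83e-05). Without the 2 libraries farthest from the median of Cyp2c55, control CT13 replicate 3 and control CT17 replicate 1, the values of r were 0.926 and 0.864.

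Next came Cyp2c29 (r = 0.798), Cyp3a25 (0.797), Gstm1 (0.789), Gstm3 (0.785), Cyp2c65 (0.764), Gstm4 (0.691) and Nqo1 (0.687). In all, 16 of the 41 genes (39.0%) had an r above 0.5, against 0.940% of 15645 genes, and the median r was 0.414, against -0.005. Since the genes were chosen with earlier results of these data known, this contrast tests no enrichment. Of the 20 genes with the highest r among all genes tested, 9 are among the 43, and 5 are in the lists of other pathway genes: Cyb5a, Aldh1a1, Maoa, Aldh1a7 and Gstm2. The drug carboxylesterases Ces2a and Ces2c and the efflux pump Abcb1a were in the same 20. Cyp2b10 was among the genes that moved with Cyp2c55 within groups (r = 0.641, rho 0.663, adjusted permutation p = 2.39e-04), although it was lower in knockout and Cyp2c55 higher. Por (r = 0.309, adjusted permutation p = 0.161), Cyp4f14 (0.181), Ahr (0.008) and Cyp27a1 (-0.038) showed weak or no such relation. Without the 5 libraries that stood apart, r was 0.958 for Cyp2c66, 0.877 for Cyp3a11 and 0.757 for Cyp2b10. Libraries share depth and composition, the paired Cyp2c65 and Cyp2c66 also share sequence, and what made libraries of a group differ was not tested.

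**Figure D5:**
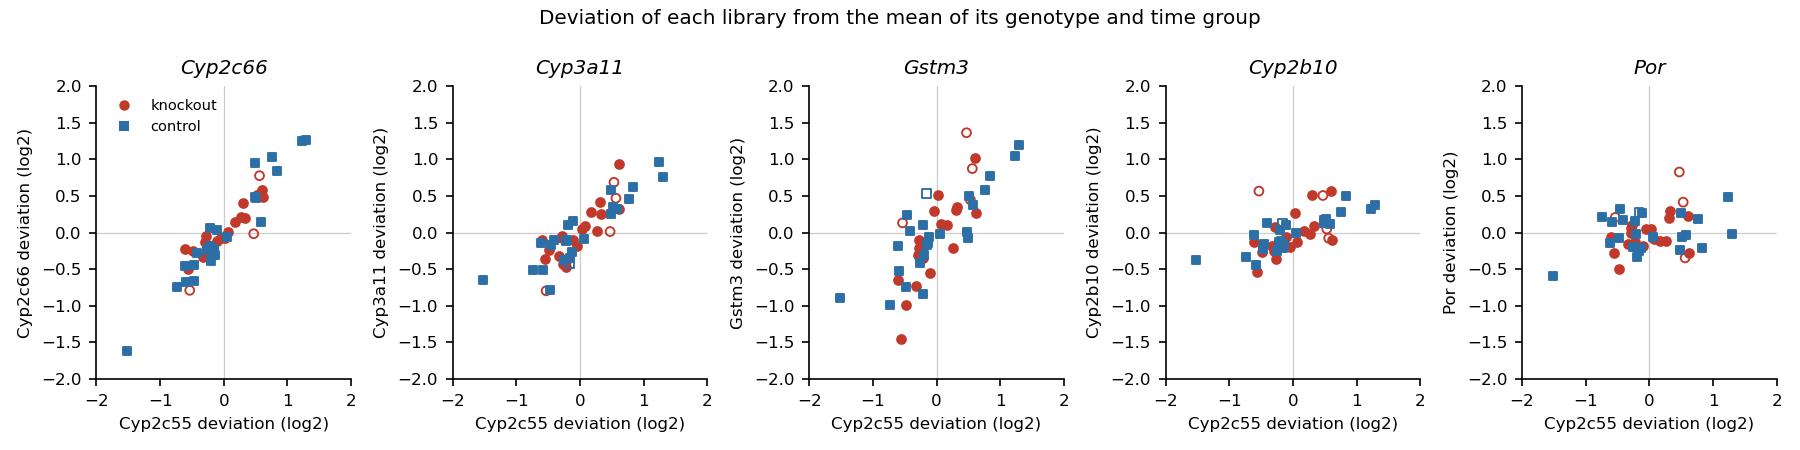
Deviation of each of 47 libraries from its genotype and time mean, in log2(CPM + 1), for Cyp2c55 (x axis) against 5 other genes (y axis); knockout as red circles and control as blue squares, open where the library stood apart. Points follow a line for Cyp2c66 (r = 0.947) and Cyp3a11 (0.866), more loosely for Gstm3 (0.785) and Cyp2b10 (0.641), and spread for Por (0.309).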

How the data were processed

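The deposited table held raw read counts per gene for 47 of the 48 labelled libraries, and the knockout CT9 library numbered 1 here was not analysed here. Per the labels' protocols, RNA came from whole jejunum and libraries were made with a stranded mRNA kit. The submitters' processing notes name alignment with STAR 2.7.5c to mm10 and counting with featureCounts 1.4.6, and also list DESeq2 1.22.0, FastQC 0.11.5, SAMtools 1.3.1 and Trimmomatic 0.39; the strand setting and the treatment of reads with several matches are not stated there.

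Gene IDs were matched to GENCODE vM21 names. Genes were kept by edgeR 4.0.16 with a minimum count of 10 and a minimum total of 15, which left 15646. Counts were scaled by TMM and are given as library-scaled counts (CPM), or CPM per kilobase of merged exons where genes are compared. The quasi-likelihood test used one mean per genotype and time (35 residual degrees of freedom), or a 24-h cosine and sine per genotype (41 residual degrees of freedom). P-values were adjusted by Benjamini-Hochberg over all genes kept, with a threshold of 0.05. The steps were also run on simulated counts with known changes. Those counts were drawn for each gene on its own, without libraries that stood apart or genes that moved together, so they do not cover these features. Alternatives were RLE and upper-quartile scaling, no low-count filter, DESeq2 1.42.0, limma-voom (limma 3.58.1), a joint test of 6 group means for rhythm, leaving out each library, leaving out the 5 libraries that stood apart, and a mean without CT1 that was added after the data were seen.

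Library values are given for genes with an adjusted p under the threshold and an absolute log2 fold change of at least 0.5 in the averaged effect, for genes whose rhythm differed (at most 8), and for the 3 genes with the highest level per length; 3 higher and 3 lower genes with the smallest p are named from the other genes of the pathway. The members and lists were chosen with earlier results of these data known. Replicate numbers were given in accession order. No label says whether libraries of a group came from separate animals, so the p-values cover only the spread between libraries, which may be technical. The closest of 69 pairs within a group differed by a chi-square of 3.49 per degree of freedom, so no library was counted as a duplicate.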

Additional observations from a re-analysis of the deposited data

Results flagged for a closer look

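For the genes described in detail, 143 sets of 4 CPM values were examined, each of 1 gene in 1 genotype and time group. In 13 of these sets a library lay far from the other 3, where chance gives about 1 in 20 for independent sets. Many of these genes moved together within groups, so the sets are not independent and the count cannot be read against that chance. In 5 of the 13 cases the library was knockout CT13 replicate 4. It had 439 CPM of Cyp2c55, against 239 to 268 CPM in the other 3 libraries of its group, 233 CPM of Cyp2c66 (others 130 to 144), 5247 CPM of Cyp3a11 (others 2036 to 2554), 574 CPM of Gstm1 (others 213 to 260) and 776 CPM of Gstm3 (others 260 to 331). Control CT9 replicate 4 was high in 3 genes, with 59.3 CPM of Cyp2c29 (others 11.1 to 14.7), 266 CPM of Cyp2c55 (others 108 to 134) and 189 CPM of Cyp2c66 (others 77.3 to 92.3). Control CT21 replicate 4 had 47.7 CPM of Cyp2c55 (others 29.3 to 30.6) and 62.1 CPM of Cyp2c66 (others 23.8 to 26.3), and control CT1 replicate 3 had 249 CPM of Cyp2c55 (others 139 to 154). The last pair were libraries that stood apart: knockout CT1 replicate 1 had 2076 CPM of Cyp4f14 (others 1323 to 1430), and knockout CT1 replicate 2 had 28.8 CPM of Ugt2b36 (others 16.9 to 17.97). The cause was not tested.

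The difference between genotypes changed with time for Por (adjusted p = 0.00673), Ephx2 (adjusted p = 0.0173) and Fmo5 (adjusted p = 0.0486) in edgeR's joint test. Por (0.140) and Ephx2 (0.303) did not pass without the 5 libraries that stood apart, and the call of Fmo5 was lost in 45 of 47 fits that left out 1 library. The fitted 24-h rhythm also differed between genotypes for Por (adjusted p = 8.89e-04), Fmo5 (adjusted p = 0.0309) and Ephx2 (adjusted p = 0.0312), of which the Ephx2 value was 0.260 without the 5 libraries; leaving out 1 library lost the call of Fmo5 in 34 of 47 fits and that of Ephx2 in 22.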

How the results depend on the processing

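Averaged over times, 19 of the 42 genes were called with RLE scaling, upper-quartile scaling, DESeq2 and limma-voom as well, 18 without the low-count filter, 18 without CT1 (17 of the 19, with Ephx2 gained) and 18 without the 5 libraries that stood apart (16 of the 19, with Mgst1 and Ephx2 gained), where 10 were higher and 8 lower, against 13 and 6. Leaving out 1 library gave 18 to 20 calls, 13 to 13 higher and 5 to 7 lower, and over all genes 3399 to 4387 calls, 1719 to 2342 higher and 1603 to 2045 lower. Without CT1, 1189 genes in all were higher, against 1933. Upper-quartile scaling split all calls into 1599 higher and 1985 lower, against 1933 and 1761. All genes also moved towards lower calls without the 5 libraries, with 1716 higher and 1846 lower. At CT1 there were 8 calls, 5 without the filter and 0 without the 5 libraries, where Gstm4 was at -0.1047 (adjusted p = 0.955) and Mgst3 at -0.01811 (adjusted p = 0.983), both with the sign turned. Without the 5 libraries there were 2 calls at CT5 against 0, 10 at CT13 against 6, 1 at CT21 against 2, and 1 for variation between times against 3. Without the filter there were 3 calls at CT9 against 5 and 1 at CT21 against 2; limma-voom also gave 1 at CT21. DESeq2 gave 6 rhythm differences against 3. The cause of these shifts was not tested. For single times and rhythms, shares of all genes under these settings are not given here, so those counts have no background beside them. Leaving out 1 library gave 4 to 12 calls at CT1, 0 to 0 at CT5, 0 to 6 at CT9, 4 to 9 at CT13, 4 to 5 at CT17, 1 to 3 at CT21, 1 to 6 for variation between times, 12 to 17 for rhythm in knockout, 21 to 27 for rhythm in control and 1 to 4 for the rhythm difference. No paired analysis was possible because replicate numbers were given in accession order and pair no libraries. Levels under 0.434 to 0.692 CPM, the value of 3 counts, are beyond the depth of these libraries; intervals of counting error do not cover differences between animals.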
